A study of Homo sapiens with 24 samples.

Results

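A set of 32 genes of the hypoxia response and of glycolysis was followed in HT29 cells, a line established from a human colon adenocarcinoma, after 6 h with bacterial metabolites, with the cytokine TRAIL or with both. The genes were chosen by name, as known targets of the hypoxia-inducible factors (HIF) and as enzymes of glycolysis, with earlier results of these data known. The rule itself uses no value from these arrays. They are 32 of the 36337 names on the array and are measured by 46 of its 50599 probes. Of these, 31 genes with 43 probes passed the filter on dim signals and were tested among 20703 genes. The gene that did not pass was BNIP3, a mitophagy receptor, whose probe was well above background on none of the 24 arrays.

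Under low oxygen, HIF escapes the prolyl hydroxylases that mark it for destruction, binds DNA at short motifs with the core ACGTG or GCGTG and switches on genes for blood vessel growth, glucose uptake and glycolysis. Glycolysis splits glucose into pyruvate, and its steps are carried by families of enzymes of which some members are made in nearly every cell and others mainly in certain tissues. Colon epithelium normally lives with little oxygen on the side that faces the gut lumen, where bacterial short-chain fatty acids are also taken up. No label names a low oxygen level for any group, so hypoxia here is the name of the gene list and not of a treatment.

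All groups were HT29 cells grown in high-glucose DMEM with fetal calf serum, 4 arrays per group: untreated (NT), C3/C2 (propionate at 30 mM with acetate at 15 mM), SN (DMEM culture supernatant of Propionibacterium freudenreichii ITG P9, diluted to 1/2), TRAIL (100 ng/ml with 2 μg/ml of an anti-Flag antibody that binds the tag on TRAIL), TRAIL+C3/C2 and TRAIL+SN. The propionate and acetate of C3/C2 were set to the amounts in the diluted SN, and HT29 is a single cell line with no other cell type present by design. All 9 markers of colon epithelium examined were well above background on all 24 arrays, COL3A1 and DCN (fibroblasts) on none, and 6 other markers of leukocytes, fibroblasts and endothelium on 10 to 24 arrays. NT and C3/C2 shared slides 1 (replicate 1) and 2 (replicates 2 to 4), SN and TRAIL shared slide 3, and both co-treatments shared slide 4, so that C3/C2 against NT, SN against TRAIL and TRAIL+SN against TRAIL+C3/C2 were comparisons on common slides. In every other comparison slide and group cannot be told apart. The 4 arrays of a group came from 2 separate experiments, each in duplicate, and the labels do not say which replicates belong together, so p values measure the spread between arrays, part of which may be technical.

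Each level below is the log2 intensity of a gene's brightest probe minus the log2 75th percentile of its array, and is compared only between arrays and not between genes. Differences are differences of group means on this log2 scale, with the standard error (SE) of the limma fit after ±. A gene was called where its group means differed by 2-fold or more with an adjusted p under 0.05. RNA was pooled over each culture, so that more RNA per cell and more cells that hold it cannot be told apart.

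The genes that were higher under every treatment that held acids or SN were VEGFA and ADM, which encode secreted vascular factors, NDRG1, a stress-responsive growth regulator, PFKFB4, a regulator of glycolytic flux, and ALDOC and ENO2, the aldolase and the enolase best known from nervous tissue. These 6 genes were called higher than NT in each of the 4 comparisons, by 2.22- to 7.73-fold. The 4 comparisons share the NT arrays, and the share of all genes called higher in all 4 was not computed. For VEGFA the calls for SN, TRAIL+SN and TRAIL+C3/C2 were made on its brightest probe and not on its second. With array median scaling the C3/C2 calls of VEGFA (0.85), ADM (0.98) and NDRG1 (0.98) were lost, and with spike-in scaling those of VEGFA for C3/C2 (0.97) and of ALDOC (0.95) and NDRG1 (0.65) for TRAIL+C3/C2. With TRAIL alone no member was called. With C3/C2, 8 of the 31 genes tested were called higher (25.8%) and none lower, where 13.4% of all genes tested were called higher and 6.18% lower. With SN, 9 (29%) were called higher and none lower, against 14.2% and 9.75% of all genes. With TRAIL+C3/C2, 10 (32.3%) were called higher and none lower, against 16.2% and 7.94%, and with TRAIL+SN 9 (29%) higher and none lower, against 16.1% and 10.1%. For TRAIL alone the shares over all genes were 0.749% higher and 2.18% lower, and its count of 0 in the list was also 0 with p unadjusted. In all, 14 members were called in at least 1 comparison with NT and 17 in none. The share of all genes called in at least 1 of these comparisons was not computed.

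The median was also taken over all members tested, called or not. The median log2 difference from NT over the 31 genes was 0.31 for C3/C2 and 0.36 for TRAIL+C3/C2, 0.40 for SN and 0.43 for TRAIL+SN, and 0.08 for TRAIL. Over all genes tested the same medians, in this order, were 0.08, 0.10, -0.02, 0.04 and 0.03. With array median scaling the members' medians were 0.00, 0.02, 0.27, 0.24 and 0.18, and with spike-in scaling 0.13, -0.35, 0.47, -0.09 and -0.19, so that the sign of those for TRAIL+C3/C2, TRAIL+SN and TRAIL depended on the scaling. These comparisons share the NT arrays. With each array scaled to its median, 4 members were called for C3/C2, all higher, where 2001 of the 20703 genes tested were called higher and 2346 lower. With scaling to the spike-in controls 5 were called for TRAIL+C3/C2, of which 4 were higher and 1 lower, where 1581 of all genes were called higher and 5893 lower.

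**Figure D1:**
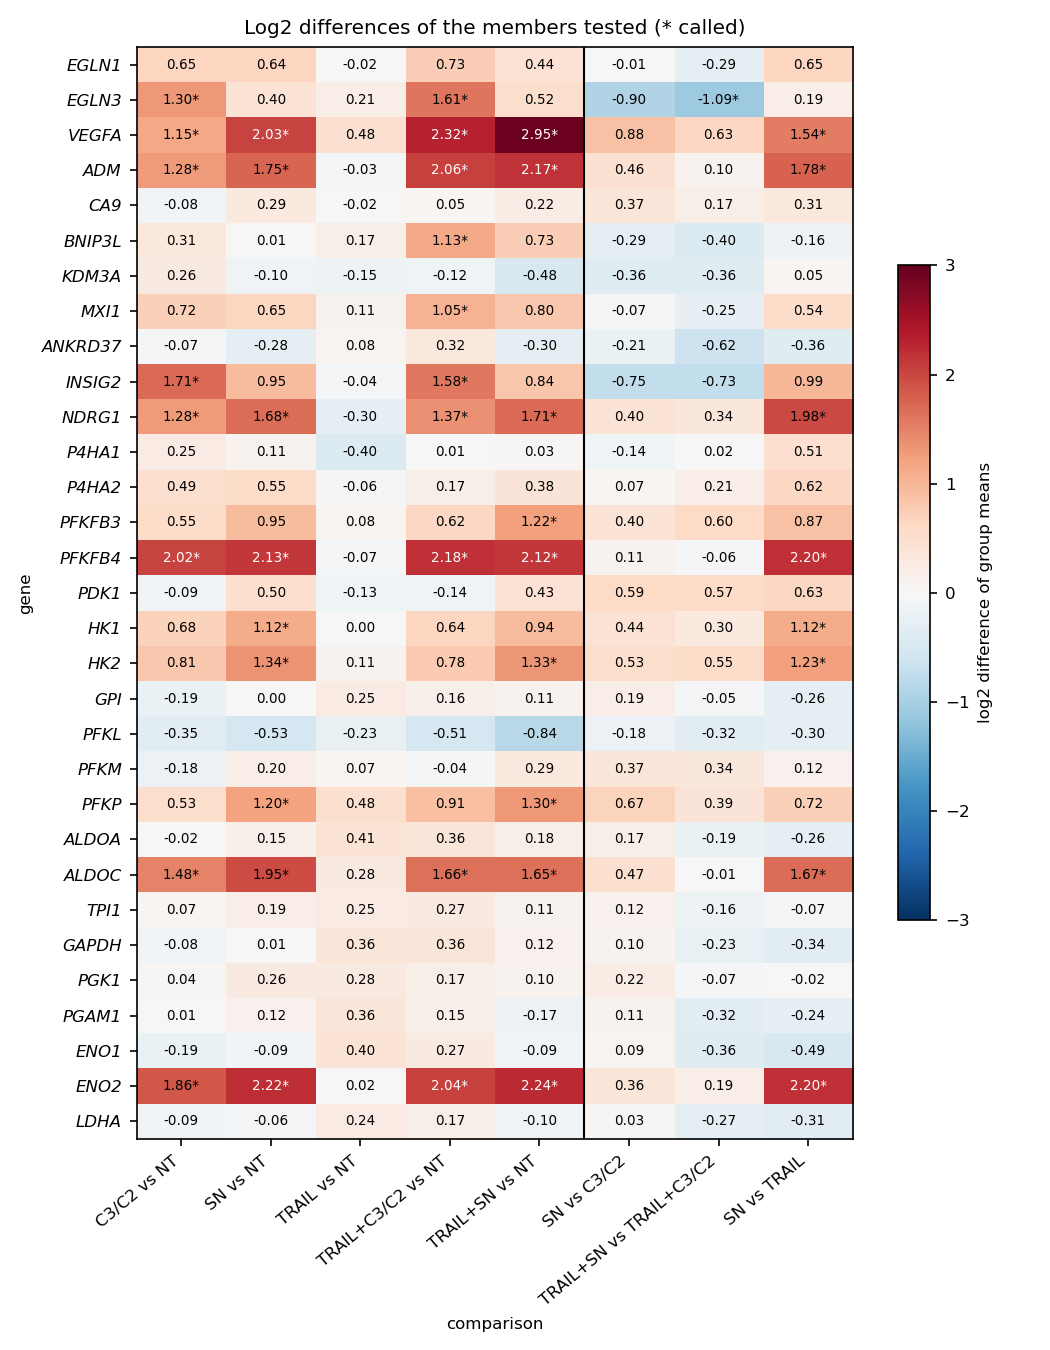
Log2 differences of group means for the 31 members tested (rows, by role) in 5 comparisons with NT and 3 between treatments (columns), with the value in each cell, colour from blue (lower) to red (higher) and an asterisk for a call. VEGFA, ADM, NDRG1, PFKFB4, ALDOC and ENO2 are called in 4 of the 5 comparisons with NT, and the TRAIL column holds no asterisk.

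The HIF core motif was looked for in 250 bases before the transcription start of each gene, taken from the RefSeq promoter table on GRCh38.p14. Of the 32 genes, 29 are in the table, and VEGFA, BNIP3L and NDRG1 are not. The letters ACGTG or GCGTG, on either strand, were found in 20 of the 29 promoters (69%) and in 43.2% of the 35116 promoters of the table. The palindrome CACGTG holds ACGTG on both strands and counts as 2 cores. The members' promoters also held more G and C, with a median of 68.4% against 58%. Within the list, a core was present in 7 of the 11 promoters of called genes (63.6%) and in 13 of the 18 promoters of genes not called (72.2%). Promoters of genes with and without a call are given beside their levels, with the cores in capitals, so that they can be compared.

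Among the prolyl hydroxylases that hold HIF down, EGLN3, itself a known HIF target, was highest with the defined acids. Its levels (probe at chr14:34393422-34393481, hg19) were -2.96, -3.05, -2.99 and -3.28 on the NT arrays, -1.77, -1.66, -1.74 and -1.92 with C3/C2 and -1.38, -1.52, -1.49 and -1.45 with TRAIL+C3/C2. With SN they were -2.50, -2.47, -2.78 and -2.93, with TRAIL+SN -2.62, -2.35, -2.66 and -2.56 and with TRAIL alone -2.83, -2.76, -2.85 and -2.99. All 8 arrays with the defined acids lay above the 16 others, while SN overlapped both TRAIL+SN and TRAIL. EGLN3 was called for C3/C2 (1.30 ± 0.10, 2.46-fold, adjusted p = 1.92e-10) and for TRAIL+C3/C2 (1.61 ± 0.10, 3.05-fold), but not for SN (0.40) or TRAIL+SN (0.52). On slide 4 it was the 1 member called between the co-treatments, lower by 2.12-fold with TRAIL+SN (-1.09 ± 0.10, adjusted p = 3.72e-08), where 0.976% of all genes were called higher and 2.56% lower. That call was not made with array median scaling, spike-in scaling or normexp background correction, at differences of -0.93, -0.90 and -0.75. The C3/C2 call was not made with array median scaling (1.00) or normexp (0.95), nor the TRAIL+C3/C2 call with spike-in scaling (0.89). EGLN1, the hydroxylase that sets HIF levels in normal oxygen, ranged from 0.85 to 1.03 on NT arrays, from 1.48 to 1.69 with SN and 1.26 to 1.49 with TRAIL+SN, and from 1.47 to 1.70 with C3/C2 and 1.56 to 1.75 with TRAIL+C3/C2. Its differences of 0.44 to 0.73 stayed under 2-fold, and with TRAIL it was -0.02 from NT.

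VEGFA, the main growth factor for blood vessels, had the largest difference from NT in the list. Its levels (probe at chr6:43746223-43746634, hg19) were 1.11, 1.05, 1.18 and 1.26 on NT arrays, 2.32, 2.18, 2.38 and 2.32 with C3/C2 and 3.19, 3.25, 3.21 and 3.06 with SN. They were 1.31, 1.33, 1.77 and 2.11 with TRAIL, 4.32, 4.10, 4.07 and 3.92 with TRAIL+SN and 3.51, 3.43, 3.48 and 3.45 with TRAIL+C3/C2. Leaving TRAIL aside, no 2 of the groups overlapped, and the TRAIL arrays lay between NT and C3/C2 with replicates 3 and 4 above replicates 1 and 2. The folds over NT were 2.22 for C3/C2, 4.07 for SN, 7.73 for TRAIL+SN and 4.98 for TRAIL+C3/C2, with differences of 1.15, 2.03, 2.95 and 2.32 (SE 0.13 each, adjusted p from 6.21e-08 down to 1.29e-14). TRAIL alone differed from NT by 0.48 ± 0.13 (adjusted p = 0.00531), which is under 2-fold. On this probe SN exceeded C3/C2 by 0.88 ± 0.13 (adjusted p = 8.54e-06), under 2-fold here and past it with array median scaling (1.05) and spike-in scaling (1.13). The second probe, given next, read SN below C3/C2.

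A second VEGFA probe (chr6:43753511-43753570) read -1.61, -0.92, -0.61 and -0.74 on NT arrays, 0.09, 0.54, 0.41 and 0.55 with C3/C2 and -0.31, -0.29, -0.46 and -0.31 with SN. With TRAIL it read -2.34, -2.48, -2.35 and -1.76, with TRAIL+SN 0.12, 0.00, -0.21 and -0.24 and with TRAIL+C3/C2 -0.88, -0.82, -0.79 and -0.77. On this probe the TRAIL arrays were the lowest, below all NT arrays, and TRAIL+C3/C2 lay within the range of NT. Within slides both probes moved the same way. C3/C2 minus NT was 1.21 and 1.70 on slide 1 (1 array each) and 1.13 and 1.26 on slide 2, SN minus TRAIL was 1.54 and 1.89 on slide 3, and TRAIL+SN minus TRAIL+C3/C2 was 0.63 and 0.73 on slide 4, for the brightest and the second probe. Across slides they parted. The second probe was 0.63 for SN, -1.26 for TRAIL, which was called lower, 0.89 for TRAIL+SN and 0.16 for TRAIL+C3/C2 against NT. The rise of VEGFA with C3/C2 was thus read by both probes, and its size in the groups on slides 3 and 4 relative to NT depended on the probe.

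ADM, which encodes the vasodilator peptide adrenomedullin and is a classical HIF target, was called in the same 4 comparisons. Its levels (chr11:10328780-10328839, hg19) were 1.72, 1.73, 1.64 and 1.63 on NT and 1.47, 1.68, 1.72 and 1.71 on TRAIL arrays, which overlapped. They were 3.01, 2.89, 2.93 and 3.02 with C3/C2, 3.15, 3.23, 3.76 and 3.55 with SN, 3.76, 3.65, 4.13 and 3.84 with TRAIL+SN and 3.55, 3.51, 3.95 and 3.96 with TRAIL+C3/C2, all above every NT and TRAIL array. Replicates 3 and 4 were above replicates 1 and 2 in SN, TRAIL and both co-treatments. The folds over NT were 2.43, 3.35, 4.5 and 4.18 in the same order, with differences from 1.28 to 2.17 (SE 0.13). On slide 3, SN exceeded TRAIL by 1.78 ± 0.13 (adjusted p = 7.25e-11).

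CA9, the surface carbonic anhydrase that is among the strongest HIF targets in tumours, was not called in any comparison. Its levels (chr9:35677817-35679204, hg19) were 3.55, 3.48, 2.82 and 2.95 on NT arrays, 3.49, 3.36, 2.81 and 2.81 with C3/C2 and 3.70, 3.86, 3.20 and 3.20 with SN. With TRAIL they were 3.48, 3.53, 2.82 and 2.88, with TRAIL+SN 3.77, 3.70, 3.06 and 3.16 and with TRAIL+C3/C2 3.54, 3.55, 2.94 and 2.96. In every group replicates 1 and 2 stood 0.58 to 0.66 above replicates 3 and 4, more than any difference between groups. The differences from NT were -0.08 (95% interval -0.59 to 0.43), 0.29 (-0.21 to 0.80), -0.02 (-0.53 to 0.49), 0.05 (-0.46 to 0.56) and 0.22 (-0.28 to 0.73), each interval lying short of a 2-fold rise. These intervals also carry the separation of the replicates. The promoters of ADM and CA9, a called and an uncalled gene of the same class, each hold 1 core, on the coding strand in ADM and on the opposite strand in CA9, which the letters CACGT mark (RefSeq, GRCh38.p14, ADM chr11:10304823-10305072, plus strand, and CA9 chr9:35673678-35673927, plus strand, 5′ to 3′):
ADM: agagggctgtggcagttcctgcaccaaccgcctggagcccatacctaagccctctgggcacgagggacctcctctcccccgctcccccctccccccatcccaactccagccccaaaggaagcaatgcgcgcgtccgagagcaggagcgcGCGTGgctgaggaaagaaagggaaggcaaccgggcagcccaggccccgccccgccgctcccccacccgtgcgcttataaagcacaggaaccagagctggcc
CA9: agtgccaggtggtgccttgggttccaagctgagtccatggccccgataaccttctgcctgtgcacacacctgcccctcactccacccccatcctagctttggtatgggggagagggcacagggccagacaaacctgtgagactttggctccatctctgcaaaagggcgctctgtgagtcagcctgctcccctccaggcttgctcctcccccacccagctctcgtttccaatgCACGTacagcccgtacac

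BNIP3L, a mitophagy receptor of the outer mitochondrial membrane, was called in TRAIL+C3/C2 alone on its brightest probe. The levels of its brightest probe were 4.61, 4.76, 4.60 and 4.68 on NT arrays, 4.84, 5.14, 4.96 and 4.93 with C3/C2, 4.60, 4.47, 4.71 and 4.92 with SN and 4.74, 4.69, 4.77 and 5.15 with TRAIL. They were 5.33, 5.44, 5.44 and 5.33 with TRAIL+SN and 5.60, 5.76, 5.96 and 5.83 with TRAIL+C3/C2, above all arrays of the single treatments, among which C3/C2 lay above NT and both SN and TRAIL overlapped NT. The difference from NT was 0.73 ± 0.10 for TRAIL+SN and 1.13 ± 0.10 (2.18-fold, adjusted p = 3.11e-09) for TRAIL+C3/C2. With array median scaling, spike-in scaling, quantile normalization or the mean of its probes TRAIL+C3/C2 was not called. Its dimmest probe was called for C3/C2 (1.09) and TRAIL+C3/C2 (1.14), with 0.92 for SN, 0.82 for TRAIL+SN and 0.01 for TRAIL, and the remaining probe gave 0.79, 0.51, 0.70, 0.55 and -0.38 in that order with none called. The brightest probe thus read smaller differences than both others with C3/C2 and SN alone. It lies at chr8:26254988-26255047 (hg19) and is annotated to another transcript record than both others, which share a RefSeq mRNA of BNIP3L. The pattern of the brightest probe is therefore not that of every BNIP3L probe. BNIP3, the close relative of BNIP3L, gave no level that could be compared.

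**Figure D2:**
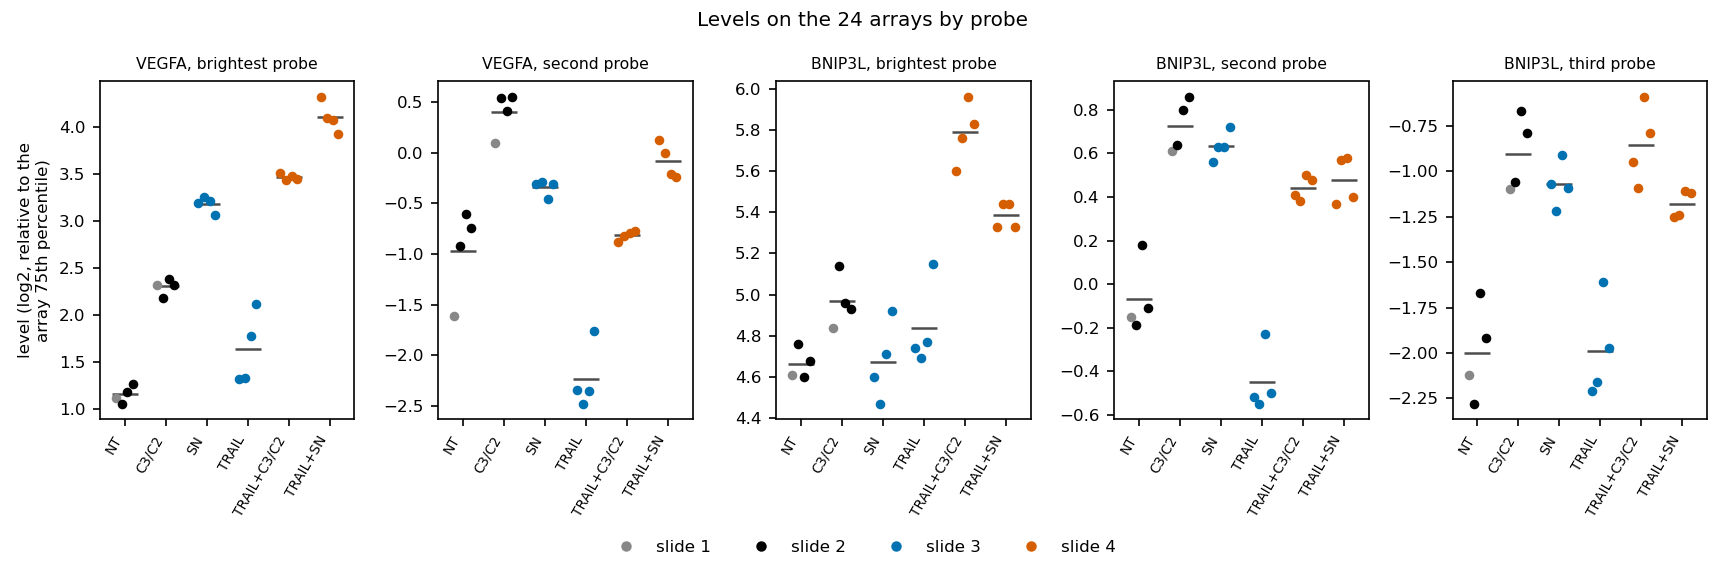
Levels of each probe of VEGFA and BNIP3L on the 24 arrays (vertical axis, log2 relative to the array 75th percentile, horizontal axis, group), coloured by slide, with a line at each group mean. Both VEGFA probes are higher in C3/C2 than in NT and in SN than in TRAIL, whereas the second probe alone places TRAIL below NT.

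Among the regulators of transcription, chromatin and sterol sensing, NDRG1 and INSIG2 had the largest differences. NDRG1 levels were 3.13, 3.03, 3.13 and 3.20 on NT arrays, 2.88, 2.87, 2.82 and 2.74 with TRAIL and 4.50, 4.49, 4.32 and 4.31 with C3/C2. With SN they were 5.05, 5.00, 4.59 and 4.59, with TRAIL+SN 5.13, 5.02, 4.62 and 4.55 and with TRAIL+C3/C2 4.72, 4.74, 4.26 and 4.25. All arrays with acids or SN lay above all NT arrays and all TRAIL arrays below them, and replicates 1 and 2 stood above replicates 3 and 4 in every group but NT. The folds over NT were 2.43 for C3/C2, 3.21 for SN, 3.26 for TRAIL+SN and 2.58 for TRAIL+C3/C2 (SE of the log2 difference 0.14), and SN was 3.95-fold above TRAIL on slide 3. The TRAIL difference was -0.30 ± 0.14 (adjusted p = 0.103).

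INSIG2, which retains the sterol regulator SCAP in the endoplasmic reticulum, was, like EGLN3, highest with the defined acids. Its levels (chr2:118864705-118864764, hg19) were 0.91, 0.83, 0.84 and 0.76 on NT arrays, 2.50, 2.51, 2.54 and 2.62 with C3/C2 and 2.27, 2.37, 2.48 and 2.54 with TRAIL+C3/C2. They were 1.73, 1.72, 1.86 and 1.86 with SN, 1.60, 1.61, 1.78 and 1.73 with TRAIL+SN and 0.80, 0.87, 0.80 and 0.73 with TRAIL. The 8 arrays with C3/C2 were the highest, the 8 with SN lay between, and TRAIL and NT overlapped. INSIG2 was called for C3/C2 (1.71 ± 0.06, 3.27-fold, adjusted p = 1.78e-15) and TRAIL+C3/C2 (1.58 ± 0.06, 2.98-fold) and just missed 2-fold for SN (0.95). With spike-in scaling the TRAIL+C3/C2 call was lost (0.86) and SN was called (1.02). On slide 4, TRAIL+SN differed from TRAIL+C3/C2 by -0.73 ± 0.06 (adjusted p = 1.7e-08), which is under 2-fold. A second INSIG2 probe was called for C3/C2 (1.04) and gave 0.87 for TRAIL+C3/C2, 0.91 for SN, 0.74 for TRAIL+SN, -0.14 for TRAIL and -0.13 between the co-treatments.

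MXI1, a repressor that competes with MYC for its partner MAX, had smaller differences in the same direction. Its levels (chr10:112044747-112044806, hg19) were 0.97, 0.72, 0.94 and 0.92 on NT arrays, 0.89, 0.94, 1.21 and 0.97 with TRAIL and 1.56, 1.48, 1.80 and 1.60 with C3/C2. With SN they were 1.54, 1.48, 1.65 and 1.47, with TRAIL+SN 1.64, 1.66, 1.79 and 1.68 and with TRAIL+C3/C2 1.96, 1.84, 2.01 and 1.95, so that the arrays with acids or SN lay above all NT and TRAIL arrays. It was called for TRAIL+C3/C2 (1.05 ± 0.08, 2.07-fold), a call that was lost without NT replicate 2 and with array median scaling, spike-in scaling, quantile normalization, normexp background correction or the mean of its probes. A second probe of the same transcript gave 0.58 there, and a probe of another MXI1 transcript had its lowest group means with SN (-2.38) and TRAIL+SN (-2.47) and means of -1.91 with C3/C2, -1.87 in NT, -1.62 with TRAIL and -1.46 with TRAIL+C3/C2. KDM3A, a histone demethylase, and ANKRD37, an ankyrin repeat protein, are HIF targets that were not called. KDM3A ranged from -1.93 to -1.57 on NT arrays and differed from NT by -0.48 to 0.26, and ANKRD37 ranged from -1.94 to -1.62 and differed by -0.30 to 0.32. P4HA1 and P4HA2, the collagen prolyl hydroxylases, were not called either, with differences of -0.40 to 0.25 and of -0.06 to 0.55. A second P4HA2 probe was called for SN at 1.16.

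PFKFB4 and PFKFB3 make and break fructose 2,6-bisphosphate, the strongest activator of phosphofructokinase, and sit at a control point of glycolysis. PFKFB4 levels (chr3:48555454-48555513, hg19) were -0.75, -0.98, -1.07 and -0.95 on NT arrays and -0.93, -0.95, -1.07 and -1.08 with TRAIL, which overlapped. They were 1.12, 1.15, 1.02 and 1.06 with C3/C2, 1.35, 1.28, 1.05 and 1.10 with SN, 1.30, 1.41, 1.00 and 1.05 with TRAIL+SN and 1.30, 1.36, 1.17 and 1.15 with TRAIL+C3/C2. These 16 arrays lay between 1.00 and 1.41, a range that TRAIL+SN alone spanned, with all NT and TRAIL arrays below them. The folds over NT were 4.06, 4.39, 4.36 and 4.53 in that order (SE 0.09 on the log2 scale, adjusted p = 5.27e-14 for C3/C2). SN differed from C3/C2 by 0.11 (95% interval -0.08 to 0.30) and TRAIL+SN from TRAIL+C3/C2 by -0.06 (-0.25 to 0.13). The 4 calls were made under all alternatives. Its promoter, shown as that of a gene called with all 4 treatments, holds 1 core on the coding strand (RefSeq, GRCh38.p14, chr3:48556804-48557053, minus strand, 5′ to 3′):
PFKFB4: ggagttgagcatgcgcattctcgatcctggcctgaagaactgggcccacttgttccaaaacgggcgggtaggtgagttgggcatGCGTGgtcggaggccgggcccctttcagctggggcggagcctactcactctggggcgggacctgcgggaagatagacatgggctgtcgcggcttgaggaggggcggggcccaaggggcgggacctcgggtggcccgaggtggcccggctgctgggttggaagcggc

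PFKFB3 levels (chr10:6277062-6277121, hg19) were -0.21, -0.20, -0.16 and -0.24 on NT arrays, 0.00, -0.14, -0.21 and -0.13 with TRAIL, 0.42, 0.43, 0.24 and 0.32 with C3/C2 and 0.46, 0.47, 0.37 and 0.39 with TRAIL+C3/C2. They were 0.88, 0.68, 0.68 and 0.76 with SN and 1.13, 1.05, 0.96 and 0.93 with TRAIL+SN, above all arrays of the other groups. It was called for TRAIL+SN (1.22 ± 0.06, 2.33-fold) and not for SN (0.95 ± 0.06). With spike-in scaling TRAIL+SN (0.69) was not called and SN was. A second, dimmer probe was called for SN (1.09), TRAIL+C3/C2 (1.05) and TRAIL+SN (1.52). PDK1, the kinase that keeps pyruvate out of the mitochondrial cycle, was not called. Its levels ranged from -0.03 to 0.12 with SN and from -0.09 to 0.06 with TRAIL+SN, against -0.52 to -0.37 on NT arrays, -0.66 to -0.52 with TRAIL, -0.62 to -0.36 with C3/C2 and -0.65 to -0.54 with TRAIL+C3/C2. The 8 arrays with SN lay above the 16 others, and the difference between the co-treatments on slide 4 was 0.57 ± 0.06 (adjusted p = 3.07e-07).

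**Figure D3:**
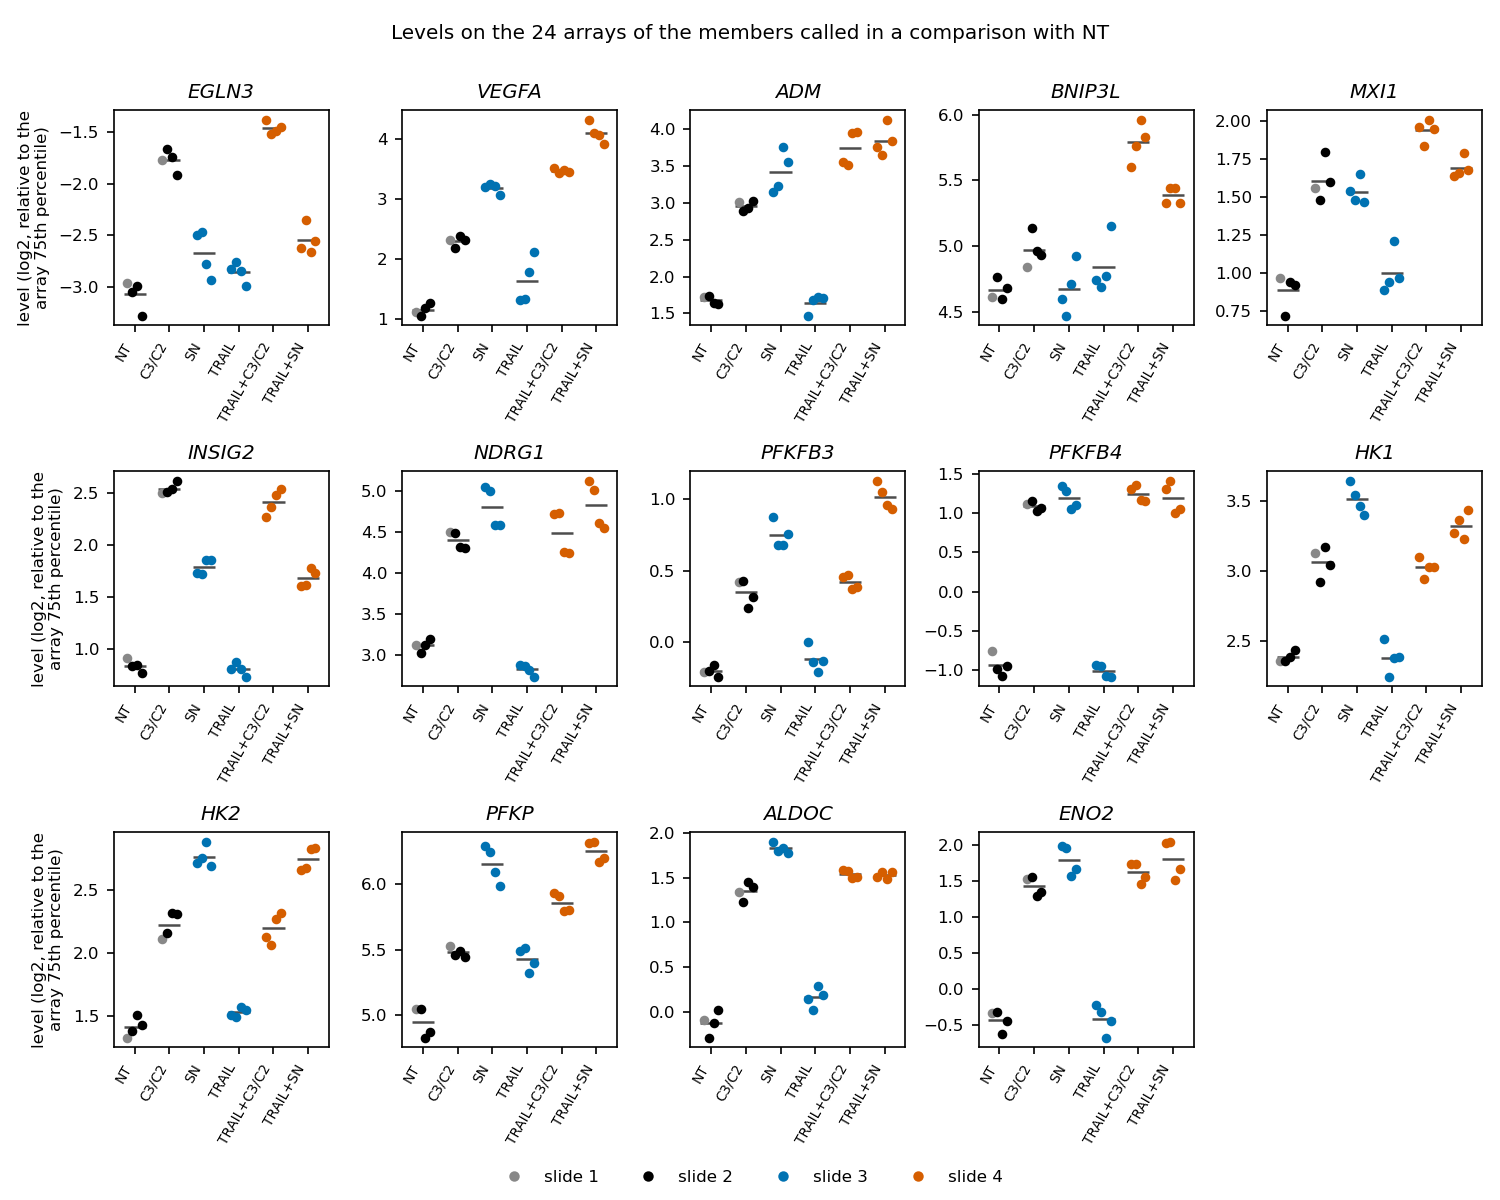
Levels on each of the 24 arrays (vertical axis, log2 relative to the array 75th percentile, horizontal axis, group) of the 14 members called in at least 1 comparison with NT, coloured by slide, with a line at each group mean. For PFKFB4, ALDOC and ENO2 all arrays with acids or SN lie above all NT and TRAIL arrays, while EGLN3 and INSIG2 are highest with C3/C2 and TRAIL+C3/C2.

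In upper glycolysis, hexokinase, which traps glucose in the cell, was higher with SN. HK2, the hexokinase typical of tumours, had levels (chr2:75120331-75120390, hg19) of 1.33, 1.38, 1.51 and 1.43 on NT arrays, 1.51, 1.49, 1.57 and 1.55 with TRAIL and 2.11, 2.16, 2.32 and 2.31 with C3/C2. They were 2.71, 2.75, 2.88 and 2.69 with SN, 2.66, 2.67, 2.82 and 2.83 with TRAIL+SN and 2.13, 2.06, 2.27 and 2.32 with TRAIL+C3/C2. The arrays with SN were the highest, those with C3/C2 came next, and TRAIL overlapped NT. HK2 was called for SN (2.54-fold, 1.34 ± 0.07, adjusted p = 2.56e-13) and TRAIL+SN (2.52-fold), and for SN against TRAIL on slide 3 (2.35-fold). For C3/C2 it was 0.81 and for TRAIL+C3/C2 0.78, both under 2-fold, and with spike-in scaling TRAIL+SN was 0.81.

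HK1, the hexokinase made in most tissues, had levels (chr10:71161158-71161217, hg19) of 2.36, 2.36, 2.39 and 2.44 on NT arrays, 2.52, 2.25, 2.38 and 2.39 with TRAIL and 3.13, 2.92, 3.17 and 3.04 with C3/C2. With SN they were 3.64, 3.54, 3.46 and 3.40, with TRAIL+SN 3.27, 3.36, 3.23 and 3.43 and with TRAIL+C3/C2 3.1, 2.94, 3.03 and 3.03. All arrays with acids or SN lay above all NT and TRAIL arrays. It was called for SN (2.18-fold, 1.12 ± 0.07), a difference of 0.99 with array median scaling, and not for TRAIL+SN (0.94 ± 0.07).

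Phosphofructokinase, which commits sugar to glycolysis, has 3 subunit genes, and they went separate ways. PFKP, the platelet-type subunit, had levels (chr10:3178781-3178840, hg19) of 5.05, 5.05, 4.83 and 4.87 on NT arrays, 5.53, 5.46, 5.49 and 5.44 with C3/C2 and 6.29, 6.24, 6.09 and 5.98 with SN. They were 5.49, 5.51, 5.32 and 5.40 with TRAIL, 6.31, 6.32, 6.17 and 6.20 with TRAIL+SN and 5.93, 5.91, 5.79 and 5.80 with TRAIL+C3/C2. Every treated array was above every NT array, the arrays with SN highest. PFKP was called for SN (2.3-fold, 1.20 ± 0.07) and TRAIL+SN (2.46-fold), with 0.77 for TRAIL+SN under spike-in scaling, and a second probe gave 0.96 and 0.91, neither called. PFKM, the muscle-type subunit, differed from NT by -0.18 to 0.29 over levels of 3.28 to 3.38 in NT. PFKL, the liver-type subunit, ranged from 1.99 to 2.66 in NT and from 1.17 to 1.84 in TRAIL+SN, and its differences from NT of -0.84 to -0.23 all pointed down without a call, although it was called lower for TRAIL+SN with array median scaling (-1.03) and spike-in scaling (-1.36) and for TRAIL+C3/C2 with spike-in scaling (-1.23). GPI, which turns glucose 6-phosphate into fructose 6-phosphate, differed from NT by -0.19 to 0.25.

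The aldolases, which cleave fructose 1,6-bisphosphate, contrasted in the same cells. ALDOC, the brain-type enzyme, had levels (chr17:26900423-26900482, hg19) of -0.09, -0.29, -0.13 and 0.02 on NT arrays, 0.14, 0.02, 0.29 and 0.19 with TRAIL and 1.34, 1.23, 1.45 and 1.39 with C3/C2. They were 1.90, 1.80, 1.83 and 1.77 with SN, 1.51, 1.56, 1.48 and 1.56 with TRAIL+SN and 1.58, 1.57, 1.50 and 1.51 with TRAIL+C3/C2. The arrays with acids or SN lay above all NT and TRAIL arrays, SN highest and both co-treatments overlapping. The folds over NT were 2.78 for C3/C2, 3.86 for SN, 3.14 for TRAIL+SN and 3.16 for TRAIL+C3/C2 (SE 0.07, adjusted p from 3.88e-14 to 3.63e-16). ALDOA, the muscle-type enzyme made in most cells, ranged from 6.47 to 6.69 on NT arrays, 6.36 to 6.71 with C3/C2, 6.63 to 6.78 with SN, 6.67 to 6.82 with TRAIL+SN and 6.79 to 7.0 with TRAIL+C3/C2. Its differences from NT in these 4 groups were -0.02 (95% interval -0.17 to 0.13), 0.15 (0.00 to 0.29), 0.18 (0.03 to 0.32) and 0.36 (0.22 to 0.51), all TRAIL+C3/C2 arrays lying above all NT arrays. The promoters of the pair are shown since their cores differ most, with 5 in ALDOC, of which 2 lie in CACGTG, and 1 in ALDOA (RefSeq, GRCh38.p14, ALDOC chr17:28576896-28577145, minus strand, and ALDOA chr16:30064029-30064278, plus strand, 5′ to 3′):
ALDOC: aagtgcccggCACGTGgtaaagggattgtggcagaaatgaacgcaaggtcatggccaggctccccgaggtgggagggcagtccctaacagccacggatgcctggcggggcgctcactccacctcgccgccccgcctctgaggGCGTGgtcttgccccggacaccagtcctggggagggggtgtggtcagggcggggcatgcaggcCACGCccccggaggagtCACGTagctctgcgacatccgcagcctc
ALDOA: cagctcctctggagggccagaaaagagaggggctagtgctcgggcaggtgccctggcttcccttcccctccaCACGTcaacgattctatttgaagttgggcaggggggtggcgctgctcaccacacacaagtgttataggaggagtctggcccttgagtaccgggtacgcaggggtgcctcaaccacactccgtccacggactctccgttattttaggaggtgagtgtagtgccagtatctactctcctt

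The enolases, which form phosphoenolpyruvate, showed the same contrast. ENO2, the neuronal enolase, had levels (chr12:7032482-7032541, hg19) of -0.33, -0.32, -0.62 and -0.44 on NT arrays, -0.22, -0.31, -0.67 and -0.44 with TRAIL and 1.52, 1.55, 1.29 and 1.35 with C3/C2. With SN they were 1.98, 1.95, 1.57 and 1.66, with TRAIL+SN 2.02, 2.04, 1.51 and 1.66 and with TRAIL+C3/C2 1.73, 1.73, 1.45 and 1.55. NT and TRAIL overlapped, and all other arrays lay between 1.29 and 2.04, with replicates 1 and 2 above replicates 3 and 4 in each group. The folds over NT were 3.62 with C3/C2, 4.66 with SN, 4.71 with TRAIL+SN and 4.13 with TRAIL+C3/C2 (SE 0.13, adjusted p = 4.85e-11 for C3/C2), and all 4 calls were made under all alternatives. ENO1, the enolase of most tissues, ranged from 6.75 to 6.95 on NT arrays, 6.60 to 6.70 with C3/C2, 6.58 to 6.88 with SN, 6.65 to 6.90 with TRAIL+SN and 6.98 to 7.19 with TRAIL+C3/C2, with differences of -0.19 (-0.34 to -0.04), -0.09 (-0.24 to 0.05), -0.09 (-0.24 to 0.06) and 0.27 (0.12 to 0.42). Here the promoter of the gene that was not called held more cores, 2 in ENO1 and 1 in ENO2 (RefSeq, GRCh38.p14, ENO2 chr12:6914330-6914579, plus strand, and ENO1 chr1:8878687-8878936, minus strand, 5′ to 3′):
ENO2: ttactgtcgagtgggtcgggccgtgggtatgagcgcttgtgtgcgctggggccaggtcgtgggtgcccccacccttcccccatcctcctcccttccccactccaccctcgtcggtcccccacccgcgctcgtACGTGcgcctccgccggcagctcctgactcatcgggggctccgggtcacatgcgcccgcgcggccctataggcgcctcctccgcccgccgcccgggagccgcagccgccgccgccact
ENO1: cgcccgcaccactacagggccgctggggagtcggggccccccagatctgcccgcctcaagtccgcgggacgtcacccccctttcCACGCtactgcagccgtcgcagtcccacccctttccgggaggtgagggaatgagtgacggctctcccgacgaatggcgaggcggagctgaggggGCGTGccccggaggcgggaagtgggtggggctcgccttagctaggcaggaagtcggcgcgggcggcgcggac

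**Figure D4:**
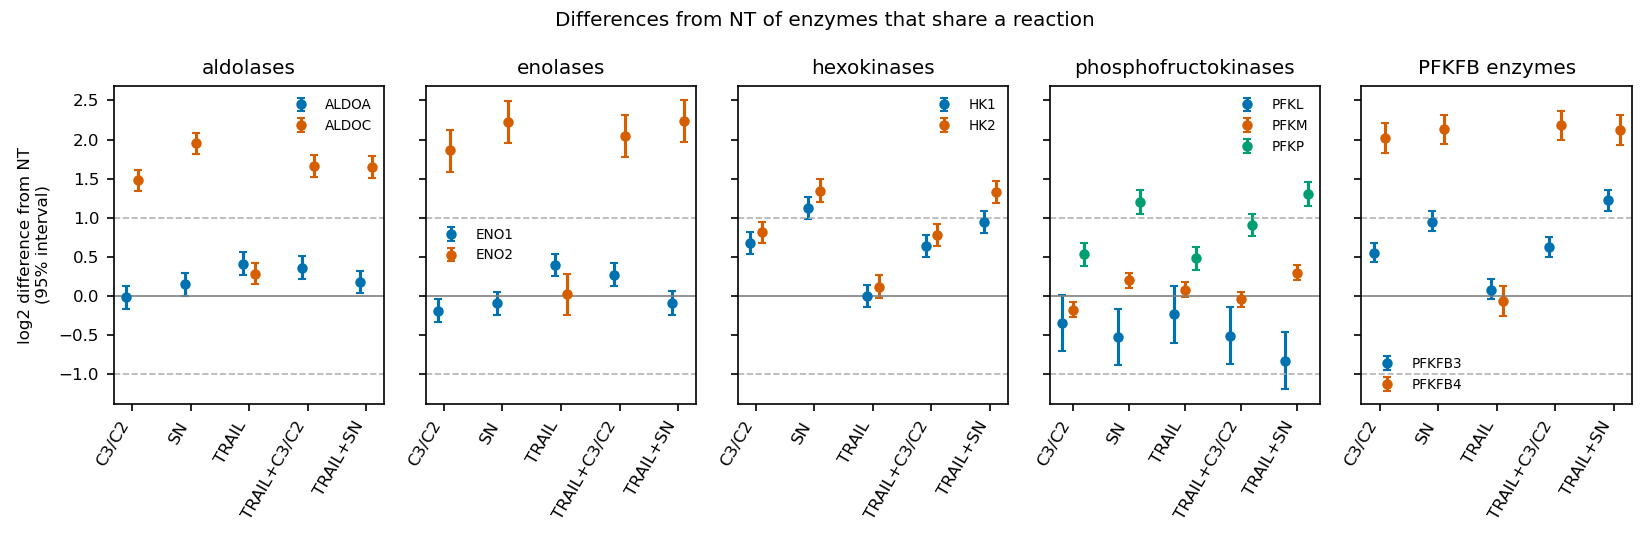
Log2 differences from NT (vertical axis) for enzymes that carry the same reaction, by treatment (horizontal axis), with 95% intervals of the limma fit as bars and dashed lines at 2-fold. ALDOC, ENO2 and PFKFB4 lie above the 2-fold line in all treated groups but TRAIL, while the differences of ALDOA, ENO1, PFKL and PFKM stay within 2-fold.

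The remaining enzymes of glycolysis, TPI1, GAPDH, PGK1, PGAM1 and LDHA, were not called in any comparison. With C3/C2 they differed from NT by -0.09 to 0.07 and with SN by -0.06 to 0.26. PGK1, which makes the first ATP of glycolysis and is widely used as a HIF target, ranged from 6.44 to 6.54 on NT arrays, 6.43 to 6.60 with C3/C2 and 6.63 to 6.85 with SN, with differences of 0.04 (95% interval -0.06 to 0.15) and 0.26 (0.15 to 0.37). LDHA, which turns pyruvate into lactate and is likewise a known HIF target, ranged from 6.36 to 6.54 on NT arrays, 6.20 to 6.47 with C3/C2 and 6.26 to 6.48 with SN, with differences of -0.09 (-0.23 to 0.05) and -0.06 (-0.20 to 0.08). PGAM1 shares near-identical sequence with its retrocopy PGAM4, so that its level is uncertain. The PGK1 promoter is printed because it holds 3 cores close together while its gene was not called (RefSeq, GRCh38.p14, chrX:78103998-78104247, plus strand, 5′ to 3′):
PGK1: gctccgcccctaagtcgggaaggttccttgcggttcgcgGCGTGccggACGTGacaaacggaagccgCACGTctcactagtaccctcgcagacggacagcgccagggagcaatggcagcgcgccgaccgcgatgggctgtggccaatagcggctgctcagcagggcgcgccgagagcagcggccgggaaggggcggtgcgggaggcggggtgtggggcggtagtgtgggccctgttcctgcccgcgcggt

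With TRAIL alone no member reached 2-fold, but 11 were higher and 1 lower than NT at an adjusted p under 0.05 and any fold (35.5% and 3.23%), where 20.3% of all genes were higher and 13.1% lower. Besides VEGFA, PFKP and ALDOC, the 11 were 8 enzymes of the glycolytic chain, ALDOA (0.41), ENO1 (0.40), GAPDH (0.36), PGAM1 (0.36), PGK1 (0.28), GPI (0.25), TPI1 (0.25) and LDHA (0.24). The second VEGFA probe went the other way and was called lower, with a mean of -2.23 with TRAIL and -0.97 in NT. GAPDH, which carries the oxidative step of glycolysis, had levels of 6.96, 6.81, 6.95 and 7.09 on NT arrays and 7.26, 7.22, 7.45 and 7.31 on TRAIL arrays, which did not overlap. ENO1 had 6.95, 6.79, 6.75 and 6.86 on NT arrays and 7.27, 7.27, 7.26 and 7.14 on TRAIL arrays, which did not overlap either. With spike-in scaling none of the 8 reached an adjusted p under 0.05, at differences of -0.03 to 0.14, and with quantile normalization they were 0.03 to 0.22. On TRAIL arrays the 75th percentile of intensity was 662.7 in the median and on NT arrays 882.7, and its part in this result was not tested. P4HA1 was the gene that was lower (-0.40).

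SN is a whole culture supernatant, and its comparison with C3/C2 asks what it adds to propionate and acetate. Across slides, no member was called between SN and C3/C2 by limma, also with p unadjusted, where 1.28% of all genes were called higher and 4.41% lower. At any fold, 13 members were higher with SN and 4 lower at an adjusted p under 0.05 (41.9% and 12.9%), against 21.7% and 25.7% of all genes. Those with the largest differences were VEGFA (0.88), PFKP (0.67), PDK1 (0.59) and HK2 (0.53) on the higher side and EGLN3 (-0.90) and INSIG2 (-0.75) on the lower. The second VEGFA probe went the other way, with a mean of -0.34 with SN and 0.40 with C3/C2, so that the direction for VEGFA depended on the probe. On slide 4, where the question can be asked within a slide in the presence of TRAIL, 7 members were higher with TRAIL+SN and 13 lower at any fold (22.6% and 41.9%), against 15.9% and 21.7% of all genes. VEGFA (0.63), PFKFB3 (0.60), PDK1 (0.57) and HK2 (0.55) were the highest, and EGLN3 (-1.09), INSIG2 (-0.73) and ANKRD37 (-0.62) the lowest. The second INSIG2 probe differed less, with means of 0.94 with TRAIL+SN and 1.08 with TRAIL+C3/C2, and of 1.12 with SN and 1.25 with C3/C2. ADM (0.10, 95% interval -0.16 to 0.37), ALDOC (-0.01, -0.15 to 0.13) and ENO2 (0.19, -0.08 to 0.46) had intervals that reach or lie near 0.

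Since SN and NT lay on separate slides, SN was also set against TRAIL, the other group of slide 3. Here 8 members were called higher, VEGFA, ADM, NDRG1, PFKFB4, HK1, HK2, ALDOC and ENO2, and none lower (25.8% and 0%), where 13.1% of all genes were called higher and 8% lower. The differences ran from 1.12 for HK1 to 2.20 for ENO2 and 2.20 for PFKFB4. All 8 are among the 9 genes called for SN against NT, and PFKP, the ninth, was 0.72 from TRAIL, a group in which PFKP was itself 0.48 above NT. Both comparisons use the same SN arrays and so are not independent, and the overlap of their calls over all genes was not computed. The median over the 31 members was 0.51, and -0.02 over all genes.

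For each co-treatment the interaction is the log2 difference between its effect and the summed effects of its parts, and a value of 0 means that the effects add. No member was called for TRAIL with C3/C2, where 0.493% of all genes were called above the sum and 0.164% below, or for TRAIL with SN, where 2.76% were above and 0.333% below. At any fold, 3 members were above the sum for TRAIL with C3/C2 and none below (9.68% and 0%, against 1.74% and 1.14% of all genes). They were ADM (0.81 ± 0.18, adjusted p = 0.0142), VEGFA (0.69 ± 0.18, adjusted p = 0.0387) and BNIP3L (0.65 ± 0.14, adjusted p = 0.0153), and none of these passed with array median or spike-in scaling. For TRAIL with SN, 2 members were above and 8 below the sum (6.45% and 25.8%, against 11% and 12.2%). The 8 below were ALDOC (-0.58), PFKP (-0.38) and 6 enzymes of the glycolytic chain from LDHA (-0.29) to PGAM1 (-0.65), and these 6 differed from NT by -0.17 to 0.18 with TRAIL+SN. On the second VEGFA probe the interaction was 0.05 with C3/C2 and 1.52 with SN, the latter called, and on the other BNIP3L probes those with C3/C2 were 0.10 and 0.04. The interaction with C3/C2 sets slide 4 against slide 3, and that with SN sets slides 4, 1 and 2 against slide 3.

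Replicates 1 and 2 differed from the other pair for several members. Replicates 1 and 2 lay apart from 3 and 4 in all 6 groups for CA9 (by 0.58 to 0.66), ENO2 (by 0.21 to 0.45) and ANKRD37 (by -0.51 to -0.18). In 5 of the 6 groups they did so for NDRG1, P4HA2, PFKFB4, PFKL and PFKP, with replicates 1 and 2 higher, and for HK2, with replicates 1 and 2 lower. The share of all genes that separate in this way was not computed. The deviations over all genes tested, given below, also set these replicates apart, so the split is not particular to the members. For ENO2, the separation was small beside the differences of 1.86 to 2.24 from NT with acids or SN, and for CA9 it was larger than all differences between groups.

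A wider list of 80 genes of the same pathways held 79 on the array and 67 tested. With C3/C2, 14 of these were called higher and none lower, with SN 16 and 4, with TRAIL 1 and 0, with both acids and TRAIL 14 and 1, and with TRAIL+SN 15 and 4, to be read against the same shares of all genes as above. By the rule of the largest rises and falls, EFNA3, a membrane-bound ephrin and HIF target, was higher by 4.26 ± 0.31 with SN, 3.93 with TRAIL+SN, 4.17 with C3/C2 and 4.11 with TRAIL+C3/C2. FBP2, a gluconeogenic phosphatase that was well above background on no NT array, was at least 5.09-fold higher with C3/C2, the dim side taken as the lowest level marked well above background on each array, with an adjusted p of 1.02e-11. PCK1, the gatekeeper of gluconeogenesis, was higher by 3.00 ± 0.16 with TRAIL+C3/C2, with 2 of 4 NT arrays above background. PGAM4 fell by 1.29 with SN, 1.38 with TRAIL+SN and 1.08 with TRAIL+C3/C2, but its probe may read PGAM1 as well.

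HIF1A and EPAS1, among the subunits of HIF, and the main glucose transporter were singled out after their values had been seen. HIF1A, the oxygen-regulated subunit that is controlled mainly through its protein, differed from NT by 0.19 with SN, 0.21 with TRAIL+SN, -0.43 with TRAIL, 0.01 with C3/C2 and -0.19 with TRAIL+C3/C2 (SE 0.05), none of them 2-fold. EPAS1, which encodes the related subunit HIF-2α, was called higher by 1.80 with C3/C2, 1.77 with TRAIL+C3/C2, 2.23 with SN and 2.16 with TRAIL+SN (SE 0.06), and was 0.09 with TRAIL. SLC2A1, the transporter GLUT1, was called for SN (1.22 ± 0.09) and TRAIL+SN (1.35), with 0.73 for C3/C2 and 0.76 for TRAIL+C3/C2.

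The scaling moved the balance of calls over all genes. The share of all called genes that were higher was 68.5% for C3/C2, 67.2% for TRAIL+C3/C2, 59.4% for SN, 61.3% for TRAIL+SN and 25.5% for TRAIL. In the same order it was 46%, 42.2%, 50.2%, 48.1% and 34.8% with array median scaling, and 54.9%, 21.2%, 64%, 27.4% and 9.43% with spike-in scaling. The median difference of all genes moved the furthest for TRAIL+C3/C2, from 0.10 to -0.61 with spike-in scaling. Of the 45 calls of members in all comparisons, 29 were made under every alternative, 16 were lost in at least 1 and none turned direction. A second probe taken alone was not among these alternatives. The 29 thus include the calls of VEGFA for SN, TRAIL+SN and TRAIL+C3/C2 and of PFKP for SN, which their second probes did not give.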

How the data were processed

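RNA of 24 HT29 cultures was labelled with Cy3 and hybridised to Agilent 8x60K whole human genome arrays, and the authors extracted each spot with Agilent Feature Extraction (10.7.3.1 per the file headers). The deposited intensity of a spot is background-subtracted and not normalized between arrays. The authors' own fold and p threshold was applied in Rosetta Resolver, whose steps were not repeated. The raw mean and background intensity deposited by the authors served an alternative, and a deposited table of intensity divided by the array median gave the same values as array median scaling.

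From these files, control and outlier spots (190 to 315 per array) were left out, 0 spots were saturated, log2 values of replicate spots were averaged per probe, and each array's log2 75th percentile was subtracted. A probe was kept where all 4 arrays of some group were marked well above background, and the brightest stood for its gene. The fit of 6 group means to all arrays used limma 3.58.1 with eBayes (18 residual degrees of freedom, R 4.3.3, data.table version 1.17.8, statmod 1.5.0) and Benjamini-Hochberg adjustment over 20703 genes. The number of arrays limits the precision, and the median SE was 0.11. The scripts were tested on simulated data. Alternatives changed the scaling, background correction, filter, probe summary (the mean of a gene's probes), fold, slide, replicate block and arrays used. Promoters and names came from RefSeq tables, probe positions (hg19) from the files, and figures from matplotlib 3.10.9 in Python 3.11.15.

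The members and lists were chosen with earlier results of these data known. Values on each array are given for members called in a comparison with NT and ranges for the others, and of the wider lists the 2 largest rises and falls called per comparison with NT are named, apart from some that are not reported here.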

Additional observations from a re-analysis of the deposited data

Results flagged for a closer look

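On 3 occasions 1 array lay far from the other 3 of its group, out of 186 such checks, where chance gives about 1 in 20. ADM had a level of 1.47 on TRAIL replicate 1 and 1.68 to 1.72 on the others. P4HA2 had 2.63 on NT replicate 2 against 2.48 to 2.50, and ENO1 had 7.14 on TRAIL replicate 4 against 7.26 to 7.27.

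The effect of a treatment differed with and without TRAIL, at an adjusted p under 0.05 and under 2-fold, for 3 members with C3/C2 and for 10 with SN. With C3/C2, the difference from the sum of both single treatments was 0.81 for ADM, 0.65 for BNIP3L and 0.69 for VEGFA. With SN it was 0.54 for BNIP3L and 0.33 for P4HA1, and below 0 for ALDOA (-0.38), ALDOC (-0.58), ENO1 (-0.39), LDHA (-0.29), PFKP (-0.38), PGAM1 (-0.65), PGK1 (-0.43) and TPI1 (-0.33). The BNIP3L values are those of its brightest probe. Its dimmest probe had means of -2 in NT, -1.07 with SN, -1.99 with TRAIL and -1.18 with TRAIL+SN. On its remaining probe these means were -0.07, 0.63, -0.45 and 0.48. The values with C3/C2 set slide 4 against slide 3 and those with SN set slides 4, 1 and 2 against slide 3, and the part of the slide was not tested.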

How the results depend on the processing

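Against NT, the counts of members called were 0 for TRAIL, 9 for SN, 8 for C3/C2, 9 for TRAIL+SN and 10 for TRAIL+C3/C2, and they were 0 for SN against C3/C2, 1 for TRAIL+SN against TRAIL+C3/C2, 8 for SN against TRAIL and 0 for both interactions. With array median scaling they were 4 for C3/C2, 1 for SN against C3/C2 and 0 for TRAIL+SN against TRAIL+C3/C2. With spike-in scaling they were 5 for TRAIL+C3/C2 (1 lower, PFKL), 8 for TRAIL+SN (2 lower, KDM3A and PFKL), 11 for SN, 11 for SN against TRAIL, 1 for SN against C3/C2 and 0 for TRAIL+SN against TRAIL+C3/C2, and with normexp background correction 0 for the last. Without a minimum fold they were 12, 20, 21, 22, 25, 17, 20, 23, 3 and 10 in the order above, since the rule then takes smaller differences. The cause of the other changes was not tested. Over all genes, spike-in scaling called 3189 higher and 1791 lower for SN. For TRAIL+SN it called 1867 and 4935, and for SN against TRAIL 4119 and 860. Leaving out each array in turn gave 9 to 10 for TRAIL+C3/C2, where the call of MXI1 was lost without NT replicate 2, 8 to 9 for SN against TRAIL and the count above in the other comparisons. With the replicate number as a block the counts at 2-fold were 0, 9, 8, 9, 10, 0, 1, 8, 0 and 0, as without it. The CA9 difference from NT was then 0.29 (95% interval 0.20 to 0.38) with SN and 0.22 (0.13 to 0.32) with TRAIL+SN. The any-fold results did change with the block. For TRAIL against NT, EGLN3 (0.21, adjusted p = 0.0356), NDRG1 (-0.30, 0.0197) and PFKL (-0.23, 0.0332) also passed. For the interaction of TRAIL with SN, ADM (0.45), PFKFB3 (0.19) and GAPDH (-0.25) also did. The numbers were not taken as pairs, since 6 of 24 arrays correlated best with their own number in every other group. Same-numbered pairs of arrays had correlated deviations (median 0.2, lowest 0.06), 57 of 60 of them over 0.1. Pairs with other numbers within replicates 1 and 2, or within 3 and 4, had a median of 0.14 (-0.06 to 0.25). Pairs across these sets had a median of -0.17 (-0.33 to 0.03). The deviations thus set replicates 1 and 2 apart from 3 and 4. Whether this split is that of the separate experiments was not tested, and the main fit takes the arrays of a group as independent. Within slide 2 alone C3/C2 called 8, within slide 3 SN against TRAIL called 8 and within slide 4 TRAIL+SN against TRAIL+C3/C2 called 1. Signals near background limit BNIP3 and the second probes of EGLN3 and HK2, which were not tested.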
